A study of Homo sapiens with 4 samples.

Results

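Integrins are cell surface receptors built of 1 alpha and 1 beta chain, and laminins are basement membrane proteins built of an alpha, a beta and a gamma chain. The genes of both families were taken by their symbols, 36 of the 58884 Ensembl genes in the deposited table. They comprised 16 integrin alpha chains, 8 integrin beta chains, 10 laminin chains (5 alpha, 3 beta and 2 gamma) and the 2 nidogens, which bridge laminin to type IV collagen. The families are larger than this list, and chains outside it were not analysed here.

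RNA was sequenced from 2 human thyroid cancer lines. FTC-133 derives from a follicular thyroid carcinoma and 8505C from an anaplastic one. Both carried either an empty vector or a vector that overexpressed CRABP1, a cytosolic protein that binds retinoic acid. Each of the 4 combinations gave 1 library, so within a line no difference has a replicate check. With 1 line of each tumour type, a line and a tumour type cannot be told apart. The promoter of the vector, the time after transfection and whether cells were a pool or a clone are not given in the labels. Values below are TPM (reads per gene length, brought to 1 common total), and groups of 4 are always in the order FTC-133 with vector, FTC-133 with CRABP1, 8505C with vector, 8505C with CRABP1.

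As background, the beta chain fixes much of what an integrin can do and the alpha chain much of what it binds: laminin, collagen, the RGD motif of fibronectin and vitronectin, or counter-receptors on other cells. Laminin trimers polymerise into the sheet on which epithelial cells, thyroid follicular cells among them, rest, and the alpha chain carries the main integrin binding site. The receptor of integrin alpha 6 and beta 4 anchors epithelial cells to laminin through hemidesmosomes, whereas most other integrins connect to actin at focal adhesions.

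CRABP1 was listed at 0 in both vector libraries and stood at 385 TPM (2018 reads) in FTC-133 and 537 TPM (2706 reads) in 8505C with the CRABP1 vector, as labelled. Reads recovered from the TPM values came to between 19174542 and 20331468 per library. Of 8 thyroid follicular markers, 4 reached 1 TPM in both FTC-133 libraries (PAX8, NKX2-1, FOXE1, HHEX) and 2 in both 8505C libraries (NKX2-1, HHEX), and SLC5A5 was listed at 0 in all 4. The thyroid transcription factors did not go 1 way. PAX8 stood at 100 and 143 TPM in FTC-133 and at 0.240 and 0.161 TPM in 8505C, and FOXE1 was also lower in 8505C. NKX2-1 stood at 44.7 and 17.7 TPM in FTC-133 and at 118 and 113 TPM in 8505C, and HHEX was also higher there. The epithelial cadherin CDH1 was at or below 0.241 TPM in every library, while the 6 epithelial markers summed to between 343 and 379 TPM in FTC-133 and between 1834 and 2208 TPM in 8505C. KRT7, KRT8 and KRT18 carried these sums, and EPCAM (6.13 and 5.87 against 0.546 and 0.235 TPM) and KRT19 were lower in 8505C. In bulk RNA, fewer cells of a kind and less RNA per cell cannot be told apart.

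Between the lines, the 25 members averaging 1 TPM or more in each line differed by a median of 0.85 on the log2 scale, in absolute terms, beside 0.45 over all genes that did so. The 8505C libraries held more of the laminin receptor chains ITGA6 and ITGB4, of the collagen receptor chains ITGA1 and ITGA2 and of LAMA5. The FTC-133 libraries held more ITGA5, ITGB3, ITGB8 and LAMA2. In limma's fit with line and vector as terms, adjusted by Benjamini-Hochberg over 19513 genes at 0.05, 12 of the 30 members fitted were called higher in 8505C, where 13.0% of all genes were, and 7 were called lower, where 22.2% were (19 of 30 either way, beside 35.2%). At an unadjusted p under 0.05 there were 23 of 30, beside 49.0%. A difference of 2-fold or more in the same direction in both the vector pair and the CRABP1 pair was found for 8 members higher in 8505C (7.65% of all genes) and 5 lower (16.0%), 13 of 30 in all beside 23.6% of all genes and 21.7% of protein-coding genes. For 5 of these (ITGA7, ITGB2, ITGB7, LAMA1 and LAMA2) only 1 line averaged 1 TPM, so that entering the fit favoured a gap. Among the 25 members above 1 TPM in each line, 10 were called higher in 8505C (13.0% of the 15580 genes that met the same floor), 5 lower (18.7%) and 10 not called, so 15 of 25 (60.0%) were called either way beside 31.6%. By the 2-fold rule 5 of the 25 were higher (5.56%) and 3 lower (8.92%), 8 in all beside 14.5%. With the floor of limma's fit raised to 5 TPM over all 4 libraries, 19 of 25 members were called, beside 5692 of 12323 genes. Those 25 are not all the same genes as above. At that floor a larger part of the background was called than at 1 TPM. Members and background were not matched by level, so the part of level in the members' higher share was not tested. The 2 libraries of a line stand in for replicates here, with 1 residual degree of freedom, and the labels do not say whether they came from separate cultures, so a p-value reflects no more than how these 4 libraries vary. Each library was also left out in turn, with no term for the vector. Calls then became fewer among the members and among all genes alike, and no member changed sign in these 4 fits. With either 8505C library left out, the calls of all members and of all other genes were lost. With either FTC-133 library left out the calls of ITGA5, ITGAV, ITGB5, ITGB7, ITGB8, LAMA1, LAMC1 and NID2 were lost, and with the FTC-133 vector library left out also that of ITGA4. In such a fit the line left with 1 library is taken to vary like the other. The median log2 difference of all genes was -0.19, or -0.03 with median-ratio scaling, and under that scaling ITGAE and NID1 turned sign.

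**Figure D1:**
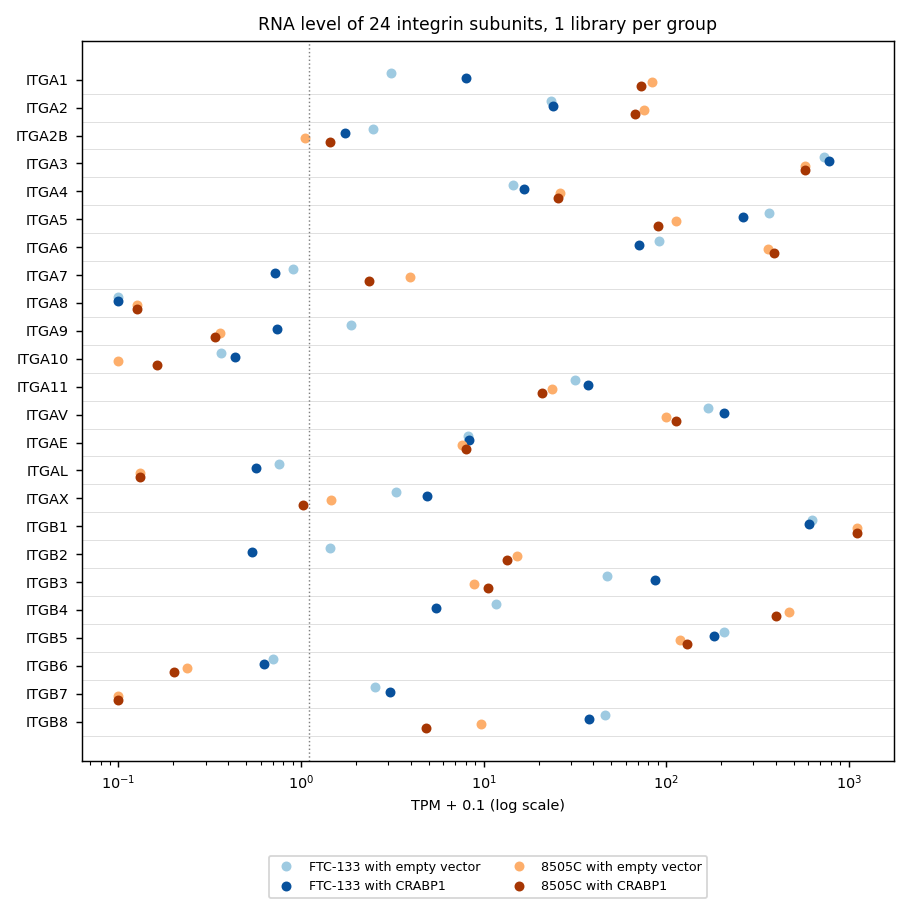
Level of each integrin chain in the 4 libraries, as TPM plus 0.1 on a log axis, with 1 point per library and a dotted line at 1 TPM. ITGB4 sits at 472 and 399 TPM in 8505C and at 11.7 and 5.41 TPM in FTC-133, whereas the points of ITGA3 and ITGAE lie close together.

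The laminin receptors came first in abundance. ITGA3, which pairs with ITGB1 to bind laminins of epithelial basement membranes, was the highest alpha chain in every library, at 737, 783, 579 and 577 TPM, and limma did not call its line difference (log2 -0.39, SE 0.102, adjusted p = 0.0565). With a mean of at least 5 TPM, and with no vector term, ITGA3 was called lower in 8505C. ITGB1, the shared partner of most alpha chains, was the highest beta chain, at 626, 607, 1118 and 1112 TPM, and was higher in 8505C (log2 0.85, SE 0.103, limma adjusted p = 0.0137). By TPM, ITGB1 held between 64.1% and 66.6% of all beta chain RNA measured in each library. The most abundant receptor chains were thus the same 2 genes in both lines.

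ITGA6, the alpha chain of the hemidesmosome receptor and of a second receptor with ITGB1, stood at 91.2, 70.7, 361 and 388 TPM. It was 3.96-fold higher in 8505C with vector and 5.49-fold higher with CRABP1 (limma log2 2.21, SE 0.152, adjusted p = 0.00622). ITGB4 (chr17:75721328-75757818, plus strand, GENCODE 29 on GRCh38), which pairs with ITGA6 alone, stood at 11.7, 5.41, 472 and 399 TPM. The 8505C libraries were above both FTC-133 libraries by at least an order of magnitude: the ratio was 40.5 (95% counting interval 36.8 to 44.7) with vector and 73.7 (64.0 to 85.5) with CRABP1. The limma difference was 5.59 (SE 0.215, adjusted p = 0.00356), the largest of the 30 fitted. ITGB4 had 16235 and 13679 reads in 8505C and 429 and 193 in FTC-133. Set against its partner per gene length, ITGB4 RNA was 0.128 and 0.0765 of ITGA6 RNA in FTC-133 and 1.31 and 1.03 of it in 8505C. ITGA7, a laminin receptor chain best known from muscle, was low throughout, at 0.807, 0.624, 3.86 and 2.26 TPM, and its line difference was not called (log2 1.22, SE 0.331, limma adjusted p = 0.0620). With no trend, and with no vector term, ITGA7 was called higher in 8505C.

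Of the collagen receptor chains, ITGA11 was the highest in FTC-133, followed by ITGA2, and ITGA1 and ITGA2 were the highest in 8505C. ITGA1 (chr5:52787896-52959210, plus strand) stood at 3.01, 7.94, 83.1 and 72.4 TPM and ITGA2 (chr5:52989326-53094779, plus strand) at 23.2, 23.8, 75.3 and 67.2 TPM. For both genes every 8505C library was above every FTC-133 library. The ITGA1 ratio of 8505C to FTC-133 was 27.6 (24.7 to 31.1) with vector and 9.11 (8.46 to 9.83) with CRABP1, and the limma differences were 3.71 (SE 0.373, adjusted p = 0.0103) for ITGA1 and 1.56 (SE 0.115, adjusted p = 0.00668) for ITGA2. These genes are neighbours on chromosome 5, on the same strand with 30115 bases between them. ITGA11, a collagen receptor chain of mesenchymal cells, stood at 31.4, 37.0, 23.7 and 20.7 TPM, with no line difference called (log2 -0.60, SE 0.155, limma adjusted p = 0.0557). With a mean of at least 5 TPM, and with no vector term, ITGA11 was called lower in 8505C. ITGA10, known from cartilage, had at most 11 reads in any library.

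Receptors for RGD ligands went the other way. ITGA5, which with ITGB1 forms the classic fibronectin receptor, stood at 367, 265, 113 and 89.6 TPM. FTC-133 was 3.24-fold above 8505C with vector and 2.96-fold above it with CRABP1 (limma log2 of 8505C to FTC-133 -1.62, SE 0.0970, adjusted p = 0.00512). ITGAV, the alpha chain shared by the vitronectin and latent TGF-beta receptors, stood at 169, 207, 100 and 113 TPM (log2 -0.81, SE 0.0954, limma adjusted p = 0.0132). Its partner chains fell into high, intermediate and near-zero levels. ITGB5, a vitronectin receptor chain, stood at 207, 183, 119 and 130 TPM (log2 -0.64, SE 0.121, limma adjusted p = 0.0306). ITGB3, the partner of ITGAV in the vitronectin receptor of endothelium and osteoclasts, stood at 47.1, 87.2, 8.77 and 10.5 TPM (log2 -2.62, SE 0.202, limma adjusted p = 0.00714). ITGB8, which with ITGAV holds and activates latent TGF-beta, stood at 46.4, 37.9, 9.59 and 4.75 TPM (log2 -2.46, SE 0.200, limma adjusted p = 0.00768). ITGB6, an epithelial activator of TGF-beta, had between 2 and 15 reads, and ITGA8, a receptor chain for nephronectin, had 1 read in each 8505C library and none in FTC-133. ITGA2B, the platelet fibrinogen receptor chain, was low at 2.38, 1.64, 0.956 and 1.35 TPM, and its line difference was not called (limma adjusted p = 0.351). The 4 platelet markers summed to 3.47, 2.15, 5.71 and 6.35 TPM. GP9 was listed at 0 throughout, GP1BA made most of the sum in 8505C, and PF4 stood at 2.74 and 0.941 TPM in FTC-133. Their part in the ITGA2B level was not tested.

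Alpha chains that bind counter-receptors or tenascin were low. ITGA4, a receptor chain for VCAM1 and fibronectin, stood at 14.4, 16.6, 26.1 and 25.6 TPM (log2 0.70, SE 0.134, limma adjusted p = 0.0309). ITGA9, a tenascin receptor chain, stood at 1.78, 0.642, 0.261 and 0.238 TPM, from 80, 28, 11 and 10 reads. Both are partners of ITGB1, and the 8505C libraries lay above FTC-133 for ITGA4 and below it for ITGA9. ITGAE, known from lymphocytes that home to epithelium, stood at 8.12, 8.24, 7.53 and 7.94 TPM, a line difference of log2 -0.07 (SE 0.165, limma adjusted p = 0.757). Its partner ITGB7 stood at 2.43 and 2.98 TPM in FTC-133, from 59 and 70 reads, and had no read in 8505C (log2 -1.89, SE 0.3797, limma adjusted p = 0.0346). Against a floor of 3 reads per library, ITGB7 was at least 18.5-fold higher in FTC-133 with vector and at least 22.6-fold higher with CRABP1. With the counting error of the FTC-133 reads included, the 95% lower limits of these ratios were 14.5 and 17.8. Exons of ZNF740 on the opposite strand cover 42.1% of the ITGB7 exon length, and ZNF740 stood at 24.1, 29.2, 20.3 and 18.4 TPM. ITGB2, the beta chain of leukocytes, stood at 1.34, 0.441, 15.2 and 13.3 TPM (log2 3.05, SE 0.249, limma adjusted p = 0.00771). Its partners ITGAX and ITGAL were not high in 8505C: ITGAX stood at 3.22, 4.77, 1.36 and 0.920 TPM, and ITGAL had 23, 16, 1 and 1 reads. Of 8 leukocyte markers, PTPRC stood at or below 0.194 TPM and LYZ at 0 in every library. Their summed level was 2.15 and 2.33 TPM in FTC-133 and 57.2 and 29.1 TPM in 8505C, of which CD14 made 56.5 and 28.6. The part of CD14-bearing cells in the ITGB2 level was not tested.

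By receptor class, laminin receptor chains held 57.0%, 59.8%, 68.6% and 70.8% of all integrin alpha TPM of the list. RGD receptor chains held 37.1%, 33.2%, 15.6% and 15.0%, and collagen receptor chains 3.99%, 4.84%, 13.2% and 11.7%. The alpha chains summed to 1454, 1428, 1376 and 1367 TPM, so the lines differed in which alpha chains they held rather than in their sum. The beta chains summed to 943, 925, 1743 and 1670 TPM, and both 8505C sums lay above both FTC-133 sums.

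**Figure D2:**
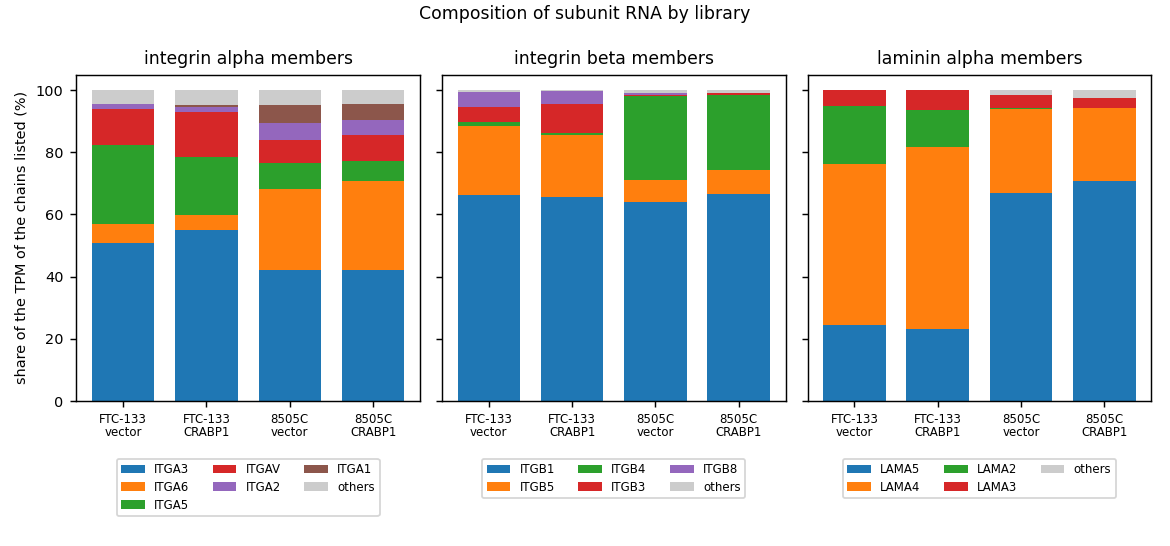
Shares of the summed TPM of integrin alpha, integrin beta and laminin alpha chains in each library, stacked to 100%, with chains under 3% in every library drawn together in grey. ITGA6 widens from 6.27% and 4.95% in FTC-133 to 26.2% and 28.4% in 8505C, and LAMA5 from 24.5% and 23.3% to 67.0% and 70.8%.

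Among the laminin alpha chains, the lines used different genes. LAMA5, found in epithelial and vessel basement membranes of adults, stood at 55.3, 49.6, 291 and 293 TPM. It was 5.27-fold (5.10 to 5.45) higher in 8505C with vector and 5.90-fold (5.70 to 6.11) higher with CRABP1 (limma log2 2.46, SE 0.1003, adjusted p = 0.00361). LAMA4, best known from vessel walls, stood at 117, 125, 118 and 96.8 TPM, and its line difference was not called (log2 -0.18, SE 0.133, limma adjusted p = 0.347). LAMA5 was therefore 0.471 and 0.397 of LAMA4 in FTC-133 and 2.48 and 3.02 times LAMA4 in 8505C. LAMA2 (chr6:128883141-129516569, plus strand), the chain of muscle and nerve basement membranes, stood at 41.8, 25.3, 0.645 and 0.685 TPM. FTC-133 was above 8505C by 64.8-fold (46.2 to 93.8) with vector and 36.9-fold (26.5 to 52.9) with CRABP1 (limma log2 of 8505C to FTC-133 -4.33, SE 0.262, adjusted p = 0.00518). The 6 fibroblast markers summed to 646 and 385 TPM in FTC-133, mostly COL1A1 and COL1A2, and to 7.05 and 12.5 TPM in 8505C, mostly LUM and PDGFRB. DCN went the other way, at 0.278 and 0.332 TPM in FTC-133 and 1.21 and 2.45 TPM in 8505C. Their part in the LAMA2 result was not tested. LAMA1, the chain of the early embryo, stood at 0.127, 0.215, 7.09 and 10.1 TPM, from 11 and 18 reads in FTC-133 and 573 and 810 in 8505C (limma log2 3.01, SE 0.285, adjusted p = 0.00922). LAMA3, the chain that hemidesmosomes attach to, stood at 11.5, 13.2, 18.4 and 13.4 TPM, with no line difference called (log2 0.33, SE 0.208, limma adjusted p = 0.289).

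The beta and gamma chains of most laminins were high in both lines. LAMB1, the most abundant beta chain, stood at 493, 531, 515 and 561 TPM (log2 0.07, SE 0.0967, limma adjusted p = 0.601). LAMC1, the gamma chain of most laminin trimers, stood at 274, 280, 466 and 539 TPM (log2 0.85, SE 0.105, limma adjusted p = 0.0140). LAMB2, a beta chain of nerve, muscle and kidney basement membranes, stood at 65.3, 53.8, 124 and 116 TPM, 1.89-fold and 2.16-fold higher in 8505C (limma adjusted p = 0.0110). LAMC1 and LAMB2 were thus higher in 8505C, and LAMB1 was not called. LAMC3 had between 1 and 4 reads. The nidogen NID1 stood at 133, 158, 129 and 133 TPM, with no line difference called (log2 -0.15, SE 0.104, limma adjusted p = 0.327), and NID2 at 55.8, 71.2, 93.3 and 215 TPM (log2 1.16, SE 0.240, limma adjusted p = 0.0367). The NID2 call was lost without mitochondrial genes, without the trend, without the vector term and without any 1 of the libraries.

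**Figure D3:**
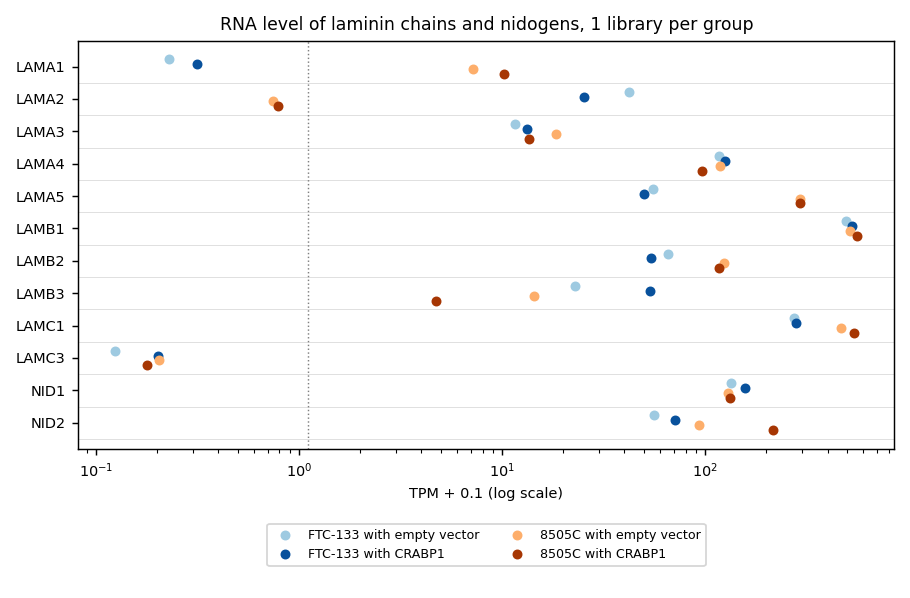
Level of each laminin chain and nidogen in the 4 libraries, as TPM plus 0.1 on a log axis, with 1 point per library and a dotted line at 1 TPM. LAMB1 lies between 493 and 561 TPM in every library, LAMA2 spans 0.645 to 41.8 TPM and the LAMB3 points spread in opposite directions within the lines.

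**Figure D4:**
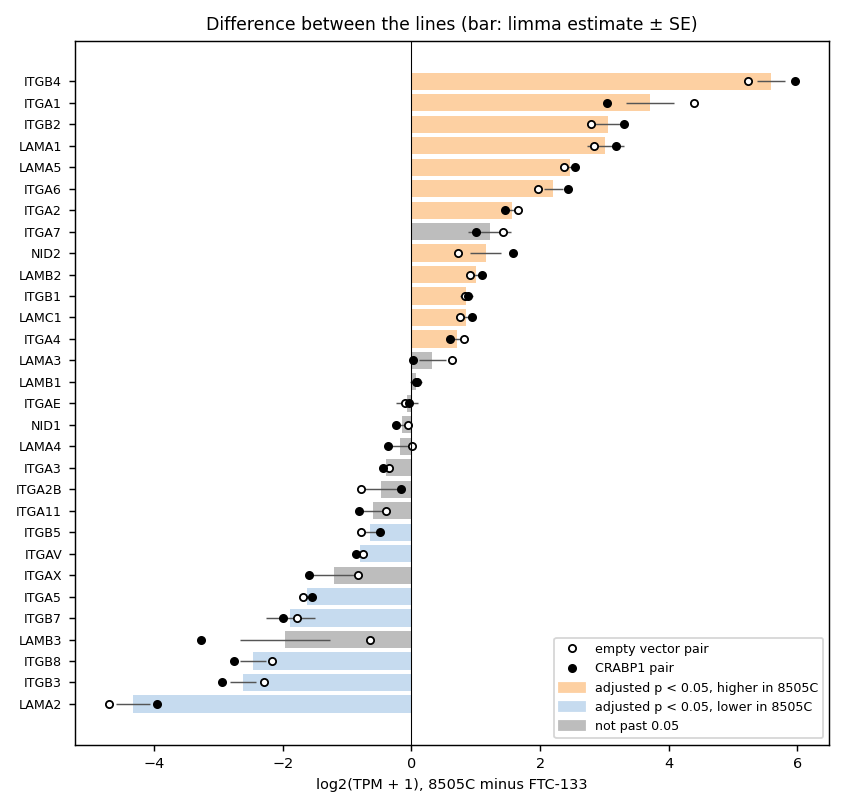
Log2 difference of 8505C to FTC-133 for the 30 members in limma's fit, as bars with their standard error, with the vector pair (open) and the CRABP1 pair (filled) as points. ITGB4 stands highest at 5.59 and LAMA2 lowest at -4.33, and the 2 points of LAMB3 lie far apart.

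With CRABP1 in FTC-133, 2 of the 28 measured members were at least 2-fold higher on the log2(TPM + 1) scale, ITGA1 and LAMB3, and none was 2-fold lower. Of the 19899 genes measured in that line, 6.02% were 2-fold higher and 4.92% lower. Counting either way, 7.14% of the members passed, beside 10.9% of all genes. For protein-coding genes of 20 reads or more the shares were 2.06% higher, 1.46% lower and 3.52% either way, so the members' share lay between these backgrounds. The members' median log2 ratio was 0.06, as it was over all genes. Their median absolute ratio was 0.26, as over all genes, and above the 0.195 of those protein-coding genes. By sign alone 17 were higher and 11 lower, where 57.8% and 42.2% of all genes were. At 1.5-fold 6 members passed (ITGA1, ITGA9, ITGB3, ITGB4, LAMA2 and LAMB3), beside 22.7% of all genes and 11.5% of the protein-coding ones.

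With CRABP1 in 8505C, NID2 was at least 2-fold higher and LAMB3 at least 2-fold lower, 1 of 28 measured members each way. The background was 3.7% of all genes higher, 4.07% lower and 7.77% either way. For protein-coding genes of 20 reads or more it was 0.241%, 0.5% and 0.741%. The members' median log2 ratio was -0.02, beside 0.02 over all genes. Their median absolute ratio was 0.19, beside 0.17 over all genes and 0.13 over those protein-coding genes. At 1.5-fold 3 members passed (ITGB8, LAMB3 and NID2), beside 15.0% of all genes and 3.8% of the protein-coding ones. By sign alone 12 were higher and 16 lower, where 54.7% and 45.3% of all genes were. Most integrin and laminin chains thus lay within 1.5-fold of the vector library in both lines.

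LAMB3 (chr1:209614870-209652466, minus strand), the beta chain that joins LAMA3 in the laminin beneath hemidesmosomes, was the only member past 1.5-fold in both lines in opposite directions. It stood at 22.8, 53.5, 14.2 and 4.63 TPM, from 581, 1325, 339 and 110 reads. With CRABP1 it was 2.35-fold (2.13 to 2.60) higher in FTC-133, and in 8505C the vector library was 3.07-fold (2.47 to 3.85) above the CRABP1 library. Opposite differences of at least 1.5-fold were found for 2.56% of all genes measured in both lines, and of at least 2-fold, as for LAMB3, for 0.866%. The FTC-133 libraries lay above the 8505C libraries by 1.60-fold with vector and 11.6-fold with CRABP1, and limma called neither the line difference (log2 -1.96, SE 0.698, adjusted p = 0.107) nor the CRABP1 difference (log2 -0.12, adjusted p = 0.989). Its trimer partner LAMA3 stood at 0.18 and -0.43 on the log2 scale of CRABP1 to vector in FTC-133 and 8505C, so that LAMB3 per LAMA3 went from 1.98 to 4.06 in FTC-133 and from 0.774 to 0.345 in 8505C.

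Stretches before RefSeq start sites of LAMB3, numbered 1 and 3 here by their order along the gene, are shown. LAMB3 was taken because its ratios diverged most between the lines of all members. Both stretches are on the minus strand of GRCh38.p14, as RefSeq gives them, at chr1:209652467-209652675 (209 bases, from 250 to 42 before the start) and chr1:209651395-209651624 (230 bases, from 250 to 21 before the start). Capitals mark matches to motifs searched on both strands, and the matches do not overlap. In the first stretch these are GGGCGG, the GC box that Sp1 binds, read on the other strand, and the NF-kB consensus. In the second they are CCAAT, read on the other strand, TGANTCA, which AP-1 binds, and GGGCGG. The nuclear receptor half-site AGGTCA, the TATA box TATAAA and the TEAD site GGAATG were also searched and had no match in either stretch.
LAMB3 start 1: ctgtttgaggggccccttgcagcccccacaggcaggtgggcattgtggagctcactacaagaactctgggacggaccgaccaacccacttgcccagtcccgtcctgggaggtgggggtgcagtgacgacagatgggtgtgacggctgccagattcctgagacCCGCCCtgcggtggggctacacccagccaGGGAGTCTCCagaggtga
LAMB3 start 3: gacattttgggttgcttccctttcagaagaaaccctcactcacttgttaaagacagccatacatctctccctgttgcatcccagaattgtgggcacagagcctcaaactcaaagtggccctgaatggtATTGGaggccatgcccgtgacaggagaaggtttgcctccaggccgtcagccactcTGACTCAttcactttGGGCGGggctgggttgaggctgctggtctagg
The AP-1 motif was found in 6.57% of all 35116 RefSeq promoters over the 250 bases before the start, the NF-kB consensus in 9.96%, CCAAT in 32.0% and GGGCGG in 42.6%. Over the 33 promoters of the 26 members with an entry these shares were 6.06%, 27.3%, 18.2% and 54.5%. A match describes letters only, and which start the cells used was not measured, since the TPM values are per gene.

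**Figure D5:**
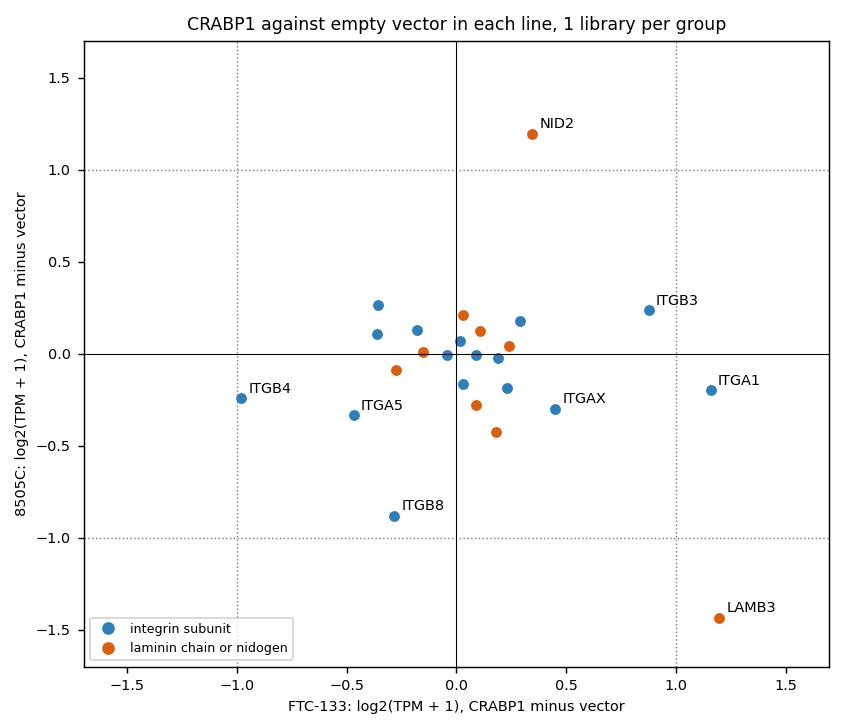
Log2 ratio of CRABP1 to vector, in TPM plus 1, in FTC-133 (x axis) and 8505C (y axis) for the 25 members measured in both lines, with dotted lines at 2-fold. LAMB3 is alone in the lower right at 1.20 and -1.44, and NID2 stands highest.

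NID2 (chr14:52004803-52069228, minus strand) was the member with the largest ratio upward in 8505C. Its levels with CRABP1 were above those with vector by 1.27-fold (1.20 to 1.35) in FTC-133 and 2.30-fold (2.21 to 2.40) in 8505C, from 1943, 2400, 3033 and 6962 reads. NID2 RNA was 0.418, 0.452, 0.724 and 1.62 of NID1 RNA, so NID2 exceeded NID1 in 1 library only, 8505C with CRABP1. Limma gave NID2 a CRABP1 difference of 0.77 on the log2 scale, and limma's unadjusted p was 0.0368 (adjusted p = 0.920). Exons covering 30.0% of the NID2 exon length overlap RTRAF on the opposite strand, which stood at 56.3, 50.7, 44.6 and 49.6 TPM. Without a stated strand setting the reads of that stretch cannot be told apart.

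On the log2(TPM + 1) scale ITGA1 had the largest ratio of the integrins measured in FTC-133, and it was 2.64-fold (2.31 to 3.02) higher with CRABP1 from 304 and 778 reads, while its log2 ratio in 8505C was -0.20. Its neighbour ITGA2 had log2 ratios of 0.03 and -0.16. ITGB3 was 1.85-fold (1.72 to 1.99) higher with CRABP1 in FTC-133 and 1.20-fold (0.986 to 1.46) in 8505C, where the interval includes no difference. Its alpha partner ITGAV was 1.22-fold (1.19 to 1.26) and 1.13-fold (1.09 to 1.18) higher. Over 51.6% of the ITGB3 exon length an overlapping read-through gene lies on the same strand, which was at or below 0.068 TPM. How reads shared by both genes were counted is not known here, so the ITGB3 level carries that uncertainty. ITGAV and ITGB3 thus had positive ratios in both lines.

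Lower levels with CRABP1 were seen for receptor chains of several classes. ITGB4 was 2.15-fold (1.81 to 2.57) higher with vector than with CRABP1 in FTC-133, where it is low, and 1.18-fold (1.16 to 1.21) higher with vector in 8505C. ITGB8 was 1.22-fold (1.17 to 1.28) and 2.02-fold (1.78 to 2.29) higher with vector, and ITGA5 1.38-fold (1.35 to 1.42) and 1.26-fold (1.21 to 1.32). LAMA2 was 1.65-fold (1.55 to 1.77) higher with vector in FTC-133, and ITGA9, with few reads, 2.77-fold (1.78 to 4.42). These intervals cover counting error of single libraries only. With lines as replicates and 1 residual degree of freedom, limma called 0 of the 30 members for CRABP1 and 1 of all 19513 genes (0.00512%). A member not called is therefore not shown to be unchanged. At an unadjusted limma p under 0.05 there were 3 members (ITGA5, ITGB8 and NID2) beside 4.73% of genes. The unadjusted p was 0.0171 for ITGA5 (log2 -0.40) and 0.0481 for ITGB8 (log2 -0.58), each with an adjusted p of 0.920 and the same sign in both lines.

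Across the 25 members measured in both lines, 7 were higher with CRABP1 in both (ITGAV, ITGAE, ITGB3, LAMB1, LAMC1, NID1 and NID2), where 32.5% of all genes were. With median-ratio scaling, or without mitochondrial genes, ITGAE and LAMC1 turned sign in FTC-133. A further 5 were lower in both (ITGA5, ITGB1, ITGB4, ITGB8 and LAMB2), where 19.4% of genes were. None was past 1.5-fold the same way in both lines, beside 2.85% of all genes.

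The proteins that work with these receptors and ligands were described by 6 lists. In the adhesion complex (talins, kindlins, kinases and adaptors at integrin tails), 13 of 27 measured genes were higher with CRABP1 and 14 lower in FTC-133, and 16 of 28 were higher and 12 lower in 8505C, none by 2-fold. Among 4 named for the largest ratios, the tensin TNS1 stood at 7.66, 15.3, 6.40 and 6.09 TPM and the paxillin relative LPXN at 34.5, 53.0, 8.29 and 5.28 TPM. Limma called 9 of 27 higher and 3 lower in 8505C (13.0% and 22.2% of all genes), LPXN among the lower (log2 -2.52, SE 0.330, adjusted p = 0.0156). Integrin inhibitors and traffic genes had no member past 2-fold in either line. One of them, ITGB1BP1, which binds the ITGB1 tail, stood at 23.7, 17.3, 27.3 and 28.4 TPM.

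Hemidesmosome genes and tetraspanins were taken as 1 list, and not all of its genes are hemidesmosome components. Limma called 6 of 8 higher in 8505C and 1 lower, beside 13.0% and 22.2% of all genes. The plakins that link ITGB4 to keratin were among the higher: PLEC stood at 153, 123, 336 and 348 TPM (log2 1.31, SE 0.130, limma adjusted p = 0.0101) and DST at 55.6, 38.5, 107 and 110 TPM (log2 1.21, SE 0.173, limma adjusted p = 0.0184). The tetraspanin CD82 stood at 24.6, 41.9, 5.16 and 5.71 TPM, higher in FTC-133. With CRABP1 none of this list passed 2-fold in either line.

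Non-integrin laminin receptors included SDC2, a syndecan, at 8.41, 1.95, 90.8 and 73.3 TPM, the only gene of that list past 2-fold with CRABP1 (log2 -1.67 in FTC-133, -0.31 in 8505C). BCAM, a receptor for LAMA5-containing laminin, stood at 2.90, 6.55, 46.9 and 39.1 TPM, and both it and LAMA5 were higher in each 8505C library than in either FTC-133 library. The syndecan SDC1 went the other way, at 166, 106, 45.6 and 38.4 TPM. Of the 6 genes of that list, limma called 3 higher in 8505C and 1 lower, beside 13.0% and 22.2% of all genes. Of the other basement membrane genes, 9 of 15 were higher and 6 lower with CRABP1 in FTC-133, with 2 past 2-fold higher and 1 past 2-fold lower, beside 6.02% and 4.92% of all genes. The 2 higher were COL18A1, a basement membrane collagen, at 5.39, 15.0, 0.625 and 0.975 TPM, and COL4A1, while COL4A2 lay just below 2-fold. COL4A1 and COL4A2, the main chains of type IV collagen that nidogens bind, stood at 50.9, 107, 22.9 and 23.8 TPM and at 44.1, 89.1, 51.1 and 48.9 TPM. Peroxidasin (PXDN), which crosslinks that collagen, stood at 103, 28.0, 135 and 135 TPM. In 8505C none of the 14 measured was past 2-fold.

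Among other integrin ligands, 2 of 24 were past 2-fold higher and 2 past 2-fold lower with CRABP1 in FTC-133 (6.02% and 4.92% of all genes), and none of 22 in 8505C (3.7% and 4.07%). VCAM1, the ligand of ITGA4, stood at 7.71 and 44.5 TPM in FTC-133 and was listed at 0 in 8505C. NPNT, the ligand of ITGA8, stood at 17.9, 43.9, 0.129 and 0.129 TPM, while ITGA8 itself had no more than 1 read. Between the lines limma called 14 of 26 ligands lower in 8505C (22.2% of all genes) and 7 higher (13.0%), with thrombospondin THBS1 at 77.5, 37.2, 2257 and 2397 TPM among the higher (log2 5.41, SE 0.308, adjusted p = 0.00495). In all 6 lists limma called no gene for CRABP1, and at an unadjusted p under 0.05 there were 0, 1, 0, 1, 1 and 3 genes in the order given here.

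Genes whose pair of ratios lay nearest to those of LAMB3 and NID2 were sought among 5715 genes with a mean of 20 TPM or more in both lines, by Euclidean distance over the 2 log2 ratios. Nearest to LAMB3 by name were the mitochondrial tRNA genes MT-TR (distance 0.47) and MT-TS2 (0.626), then ADA (0.672) and SLC2A3 (0.693). Nearest to NID2 were CEBPG (0.326), the pseudogene CYCSP6 (0.377), MAMDC2 (0.416), YARS1 (0.428) and TARS1 (0.452). The distances rest on 2 ratios from 4 libraries and are a description. LAMB3 and NID2 were picked for this after their values were seen.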

How the data were processed

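RNA was sequenced in 4 libraries, 1 per group. The authors deposited 1 table of TPM values for 58884 Ensembl genes, scaled to a column sum of 1000000. The tools Trimmomatic 0.38, featureCounts 2.0.0 and FastQC and the build GRCh38 are named per the submitters' processing notes, without their roles. For the aligner, annotation and strand the entry is: not given in the sources used here. Therefore reads of 19 members with an exon on the opposite strand of another gene's exon carry that uncertainty, 3 of them over at least 10% of their exon length (ITGB7, 42.1%, NID2 and LAMA1). Gene symbols came from a table that held 58472 of the identifiers.

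The deposited TPM values times the union exon length in GENCODE 29, known for 58611 identifiers, were multiples of a constant of each library, from which reads were recovered. Up to 50 reads, 90.5% to 91.6% of values were within 0.02 of a whole number. These reads gave exact Clopper-Pearson intervals (95%) of ratios and floors of 3 reads, for counting error only.

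Log2 ratios used TPM plus a pseudocount of 1, which understates ratios of low genes. Genes had to average 1 TPM or more over the pair. Folds with an interval are plain TPM ratios. The limma fit, with trend, took genes averaging 1 TPM or more over all 4 libraries, two-sided, with Benjamini-Hochberg adjustment. The fit was also run on simulated data, with the same CRABP1 effect in both lines and only genes averaging 20 reads or more. That run does not show how the fit behaves where the lines differ or reads are few. The members and lists were chosen with earlier results of these data known. Every member is counted, members averaging 1 TPM or more in a line are given by their TPM and the others by reads, and of each list up to 4 genes with the largest ratios could be named. Line tests are given for LPXN, PLEC, DST and THBS1, all called and each among the 4 of its list, and not for the other genes named. The comparisons with protein-coding genes of at least 20 reads, and with genes of 1 TPM in each line, were added after seeing the data. Promoter sequences are from RefSeq (GRCh38.p14), and only stretches free of annotated exons are shown. Python 3.11.15, pandas 2.3.3, NumPy 2.4.6, SciPy 1.17.1, matplotlib 3.10.9, R 4.3.3 and limma 3.58.1 were used. Alternatives were the pseudocount, the filter, the scaling, the fold, the limma settings and leaving out each library.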

Additional observations from a re-analysis of the deposited data

Results flagged for a closer look

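The log2 ratio of CRABP1 to vector for LAMB3 was 2.63 higher in FTC-133 than in 8505C, with a positive ratio in the 1 line and a negative ratio in the other. With 1 library per group this difference between the lines was not tested.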

How the results depend on the processing

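The count of members past 2-fold with CRABP1 in FTC-133 went from 2 to 4 with a pseudocount of 0.1, which added ITGA9 (log2 -1.34) and ITGB4 (-1.09), and to 6 at 1.5-fold. In 8505C it went from 2 to 3 at 1.5-fold. Median-ratio scaling and leaving out mitochondrial genes each gave 3 in FTC-133, adding ITGB4. Of 273 member ratios under these alternatives 8 turned sign, all from values near 0, for ITGA2, ITGAE and LAMC1 in FTC-133 and LAMA5 in 8505C. For the difference between the lines, 19 members were called, 6 with no filter on low values, 14 with no trend, 17 with no mitochondrial genes (ITGB5 and NID2 lost), 18 with median-ratio scaling (ITGB5 lost) and 22 with no vector term, and between 0 and 11 with a library left out (10 without FTC-133 vector, 11 without FTC-133 CRABP1 and 0 without either 8505C library). Median-ratio scaling moved the median of all genes between the lines from -0.19 to -0.03 on the log2 scale, and with it ITGAE and NID1 turned sign. The cause of these changes was not tested. For CRABP1 over both lines no alternative with all 4 libraries called a member. Of all genes, 1 was called at the floor of 5 TPM and 0 in the others. CRABP1 itself, listed at 0 with vector and at 385 and 537 TPM with CRABP1, was thus not called in those others. The absence of member calls therefore carries little information. The limma fit with both terms pairs the libraries by line, and the fit of CRABP1 without the line term called no member and no other gene. Depth limits ITGA8, ITGA10, ITGAL, ITGB6 and LAMC3, which were below 1 TPM in every library.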

Other observations

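Among the beta chains that pair with ITGAV, ITGB8 RNA was 0.985 of ITGB3 RNA with vector and 0.434 of it with CRABP1 in FTC-133. For 8505C the values were 1.09 and 0.452, so the ratio was lower with CRABP1 in both lines. This ratio was noticed after the values were seen and was not tested. It carries the uncertainty of reads that ITGB3 shares with its overlapping gene.

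CDH5, an endothelial cadherin, stood at 103 and 97.9 TPM in 8505C and at 0 and 0.125 TPM in FTC-133, as 1 of 5 endothelial markers. PECAM1 stood at 3.68 and 2.19 TPM in 8505C and 1.76 and 1.44 TPM in FTC-133, and VWF, KDR and TEK were at or below 0.719 TPM in 8505C. LAMA4, a laminin chain of vessel walls, was not called between the lines.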
